A study of Homo sapiens with 12 samples.

Results

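The 33 genes described here are transcriptional targets of the tumour suppressor p53, taken as a list of names that was drawn up with earlier results of these data known. The gene table of the array named a probe set for 31 of them. For 29 a probe set read above 4 (log2) on 3 or more of the 12 arrays, and these 29 entered a test of 10623 genes in all. BTG2 and FDXR were not analysed here. SPATA18 and EDA2R stayed under the level of 4, at 2.84 to 2.99 and at 2.32 to 2.54 over the 12 arrays, and were not tested.

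HK-2 is a line of human renal proximal tubular epithelium, immortalised with oncogenes of a human papillomavirus, whose E6 protein is known to direct p53 to degradation. Nearly confluent cells, kept in medium with EGF, insulin, hydrocortisone, transferrin and selenite, received a compound called Di or, as control, its vehicle. Both treatments lasted 12 h or 48 h, which makes 4 groups of 3 biological replicates, and n = 3 holds for every group mean below. The labels do not say whether the replicates were separate cultures of the line, so p-values measure the spread between these samples. What Di is, and at which dose it was given, is not stated in the sources used here. The study looked for expression signatures of kidney toxicity. Values are log2 expression values of a probe set, so a difference of 1 is a doubling.

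As background, p53 is a transcription factor that is kept low by the ubiquitin ligase MDM2 and is stabilised by DNA damage, oxidative stress and other insults. It then binds response elements made of a pair of decamers and induces genes that stop the cell cycle, repair DNA, alter metabolism or promote cell death, and it induces MDM2, which closes a feedback loop. Several of these genes, among them CDKN1A, GDF15, GADD45A and GADD45B, are also known to respond to other stress pathways without p53. In tubular epithelium, the p21 protein made from CDKN1A is a known part of the response to nephrotoxic injury.

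From the RefSeq promoter table (GRCh38.p14, 250 bases before to 50 after each listed start), 39 windows of 28 of the 33 genes were used. PHLDA3, GADD45A and ASCC3 had no window among these and were not searched. RRM2B and TP53INP1 were left out of this search, but the set of all windows was not cut in the same way. The shares below therefore compare sets that were not chosen alike. The decamer that p53 binds was searched on both strands, allowing overlaps. It occurred in 5 of the 39 windows (12.8%) and in 2329 of all 35116 windows (6.63%). The windows belonged to SESN1, FDXR, DDB2, AEN and PLK2. Those of the 4 measured genes are shown because they hold the decamer close to a start site, with the decamer in capitals, 5′ to 3′ on the strand of the gene. They lie at chr6:109009018-109009047 (minus strand), chr11:47214975-47215004 (plus), chr15:88621296-88621325 (plus) and chr5:58460199-58460228 (minus).
SESN1: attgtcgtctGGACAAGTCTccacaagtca
DDB2: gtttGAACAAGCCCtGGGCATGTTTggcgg
AEN: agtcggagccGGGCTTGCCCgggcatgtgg
PLK2: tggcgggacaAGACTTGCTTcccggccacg
In DDB2 a pair of decamers stood next to each other, and the other windows held 1 each. The antioxidant element TGACNNNGC, which NRF2 binds, occurred in 8 of 39 windows (20.5%, in 7 genes) against 13.3% of all windows. The element TGATGNAA of ATF4 occurred in 1 (2.56%, PLK3) against 3.62%. None of these motifs stood in the windows of CDKN1A or GDF15, which says only that the letters are not in this stretch. Of the 4 genes shown, AEN and PLK2 were higher in Di at 48 h, DDB2 was lower in Di at 12 h, and SESN1 passed the test in neither Di comparison, as given below.

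Median values of the arrays ran from 2.97 to 3.06, and arrays of 1 group correlated at 0.9946 or more over their probe sets. The array least like its group was replicate 2 of Di at 12 h, with a root mean square deviation of 0.252 from the group mean against 0.111 to 0.182 for the other arrays. Of the markers of renal epithelium, 6 of 7 passed the level filter (PAX8, KRT8, KRT18, KRT19, CDH1 and EPCAM). None of the 9 named markers of differentiated proximal tubule passed it, AQP1, LRP2 and CUBN among them, nor did the 4 endothelial and 3 named leukocyte markers. Of 4 fibroblast markers, DCN and LUM passed, while PDGFRA and COL1A2 did not exceed 2.89. The summed level of the fibroblast list was 10.23 to 10.36 (log2) in control at 48 h and 9.18 to 9.50 in Di at 48 h. That of the renal epithelium list was 14.10 to 14.24 and 13.77 to 13.90, a sum over genes that moved in opposite directions. With Di at 48 h, KRT19 (-1.19), CDH1 (-1.33) and EPCAM (-0.65) were called lower. PAX8 (0.39) and KRT18 (0.20) were called higher, and KRT8 (0.13) was not called. The part of either list in the 48 h results was not tested.

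At 48 h, genes that p53 induces were more often higher than lower in Di-treated cells. CDKN1A, GDF15, GADD45A, PHLDA3, AEN and PLK2 rose by at least 1 on the log2 scale, 3.05-fold to 4.71-fold. Of 29 tested targets, 13 were higher, 3 were lower and 13 did not pass the test (limma, Benjamini-Hochberg adjusted p under 0.05 over all genes). In all, 55.2% of the targets passed, close to the 50.9% of all genes that did, so a call as such did not set the targets apart. Their direction was higher in 44.8% of the targets, against 22.9% of all genes, and lower in 3 of 29, against 28.0%. The 3 Di arrays lay wholly above the 3 controls for 14 targets (28.6% of all genes) and wholly below for 7 (33.0%), in either direction 61.6% of all genes. Without replicate 2 of Di at 12 h in the shared estimate of the spread, 13 were higher and 5 lower. The median log2 change of the targets was 0.25 and that of all genes -0.02. These arrays measure bulk RNA, in which fewer cells of a kind and less RNA per cell cannot be told apart.

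At 12 h, 5 of 29 targets were higher in Di (CDKN1A, GDF15, GADD45A, PHLDA3 and SERTAD1) and 3 were lower (CYFIP2, DDB2 and TP53INP1). That is 17.2% higher, against 3.90% of all genes, and 27.6% in either direction, against 13.7%, while 9.80% of all genes were lower. The 3 Di arrays lay wholly above the 3 controls for 8 targets and wholly below for 8, where 34.8% of all genes did either (11.1% above and 23.7% below). The median change of the targets was -0.07, beside -0.06 for all genes. With each array centred on the median of the tested genes, a setting chosen after seeing the data, 7 targets were higher and 2 lower, and 54.4% of all calls at 12 h were higher, against 28.5% without it. The number of higher targets was 3 without replicate 2 of control at 12 h, 3 without the 48 h arrays and 4 without replicate 2 of Di at 12 h, where the median was 0.0547. The 3' minus 5' signal of actin, which reflects RNA quality, was 0.95 to 1.40 in Di and 1.55 to 1.90 in control at this time (exact permutation p = 0.100, two-sided, which 3 against 3 samples cannot go below). Its part in the 12 h results was not tested, and at 48 h the signal was 1.35 to 1.49 in Di and 1.19 to 1.43 in control.

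**Figure D1:**
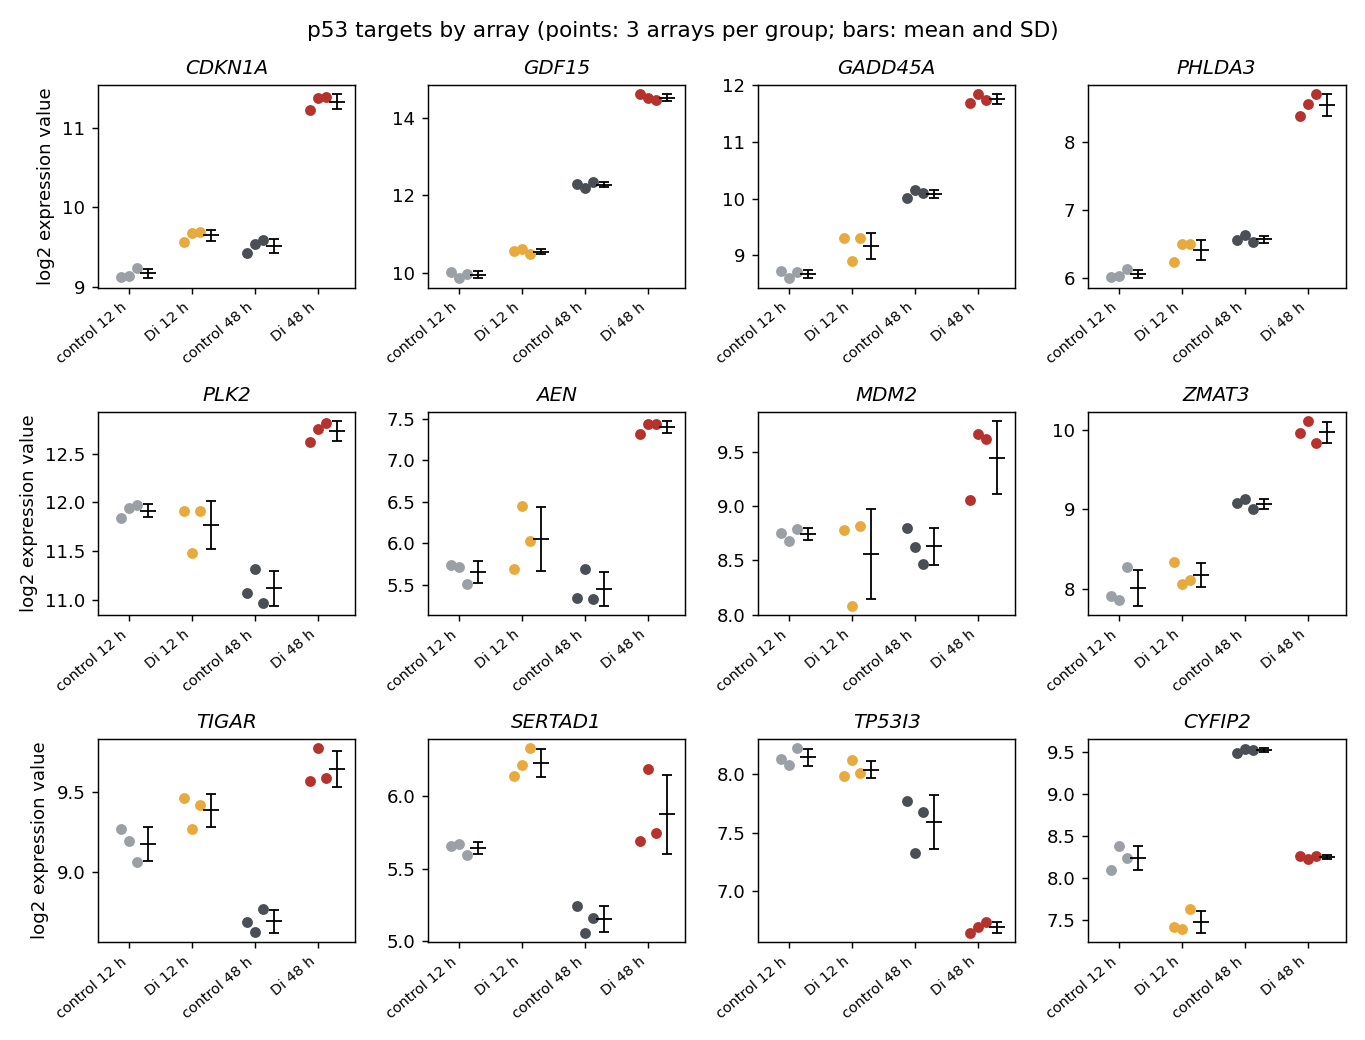
Log2 expression value (vertical axes, which do not start at 0) of 12 p53 targets in each of the 4 groups (horizontal axes). Points are the 3 arrays of a group and bars the mean with its SD. For CDKN1A, GDF15, GADD45A, PHLDA3, PLK2, AEN, MDM2, ZMAT3, TIGAR and SERTAD1 the Di points at 48 h lie above the control points at 48 h, and for TP53I3 and CYFIP2 below.

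The first role is arrest of the cell cycle and growth control, with 8 listed and 7 tested targets, of which 4 rose and 1 fell at 48 h (22.9% and 28.0% of all genes did). CDKN1A encodes p21, the inhibitor of cyclin-dependent kinases through which p53 arrests the cycle. The 3 arrays of CDKN1A read 9.13, 9.14 and 9.24 with vehicle and 9.57, 9.68 and 9.69 with Di at 12 h. At 48 h the values were 9.42, 9.55 and 9.59 with vehicle and 11.22, 11.38 and 11.39 with Di. The Di arrays lay above the controls of the same time at both times, and those at 48 h stood far above every other array. The log2 change was 0.48 ± 0.0755 (SE, 1.39-fold, adjusted p = 0.00382) at 12 h and 1.81 ± 0.0755 (3.50-fold, adjusted p = 8.53e-09) at 48 h. The change at 48 h exceeded that at 12 h by 1.33 ± 0.107 (adjusted p = 4.31e-06). Among all genes tested, 1.23% had a larger increase at 48 h.

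GADD45A, a stress-induced protein that binds PCNA and p21 and acts in growth arrest and repair, read 8.72, 8.59 and 8.71 in control at 12 h and 9.30, 8.90 and 9.30 in Di at 12 h. At 48 h it read 10.01, 10.15 and 10.10 in control and 11.68, 11.84 and 11.74 in Di. It was thus higher at 48 h than at 12 h already in the control arrays, and higher again with Di. Its change was 0.49 ± 0.105 at 12 h (adjusted p = 0.0127) and 1.67 ± 0.105 at 48 h (3.17-fold, adjusted p = 2.01e-07). The 12 h call ended without replicate 2 of control at 12 h (0.45, adjusted p = 0.0524) or when the 48 h arrays were kept out of the fit (adjusted p = 0.0694).

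Its relative GADD45B went the other way at 48 h. The arrays read 6.46, 6.51 and 6.60 in control and 5.78, 6.25 and 6.14 in Di, without overlap (-0.47 ± 0.144, adjusted p = 0.0183). At 12 h the groups overlapped, with means of 7.48 ± 0.287 (SD) in control and 7.54 ± 0.0344 in Di (adjusted p = 0.840). The 48 h call of GADD45B ended without replicate 1 of Di at 48 h (-0.33, adjusted p = 0.0737) or replicate 3 of control at 48 h (-0.43, adjusted p = 0.0582). Neither of its other probe sets that passed the level filter was called at 48 h (-0.15 and -0.33).

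PLK2, a kinase of the polo family with a role in centriole duplication and the response to stress, read 11.84, 11.94 and 11.97 in control at 12 h and 11.91, 11.48 and 11.91 in Di at 12 h, which overlapped. In control at 48 h it read 11.07, 11.32 and 10.97, and in Di at 48 h 12.62, 12.75 and 12.82. Control at 48 h thus lay below every 12 h array and Di at 48 h above them all. The 48 h change was 1.61 ± 0.126 (3.05-fold, adjusted p = 1.18e-06), against -0.15 ± 0.126 at 12 h (adjusted p = 0.464). The difference of 1.76 ± 0.178 between the changes was the largest among the tested targets (adjusted p = 2.33e-05).

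SERTAD1, a regulator of CDK4 and of E2F transcription, was the only target called at both times without a call for the difference between its changes. It read 5.66, 5.67 and 5.59 in control and 6.14, 6.21 and 6.32 in Di at 12 h, and 5.24, 5.06 and 5.16 in control and 5.69, 6.19 and 5.74 in Di at 48 h. The changes were 0.58 ± 0.118 (adjusted p = 0.0103) and 0.72 ± 0.118 (adjusted p = 0.000370), and their difference did not pass the test (0.14 ± 0.167, adjusted p = 0.564). CCNG1, an atypical cyclin induced by p53 that recruits a phosphatase to MDM2, lay lower in Di without overlap at both times. Its changes of -0.22 ± 0.0701 (adjusted p = 0.0577) and -0.18 ± 0.0701 (adjusted p = 0.0567) just missed the threshold. It was called lower at 12 h in 4 alternatives and at 48 h in 7, among them a level filter of 6 (adjusted p = 0.0468 and 0.0491).

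PLK3, another polo-like kinase, was dim and variable, at 3.67 to 5.03, and stood at -0.09 ± 0.282 and -0.07 ± 0.282 (adjusted p = 0.870 for both). Its other probe set past the filter gave a change of 0.91 at 48 h. With the mean of both, PLK3 was higher at 48 h (0.42, adjusted p = 0.0425), so its direction depended on the probe set.

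**Figure D2:**
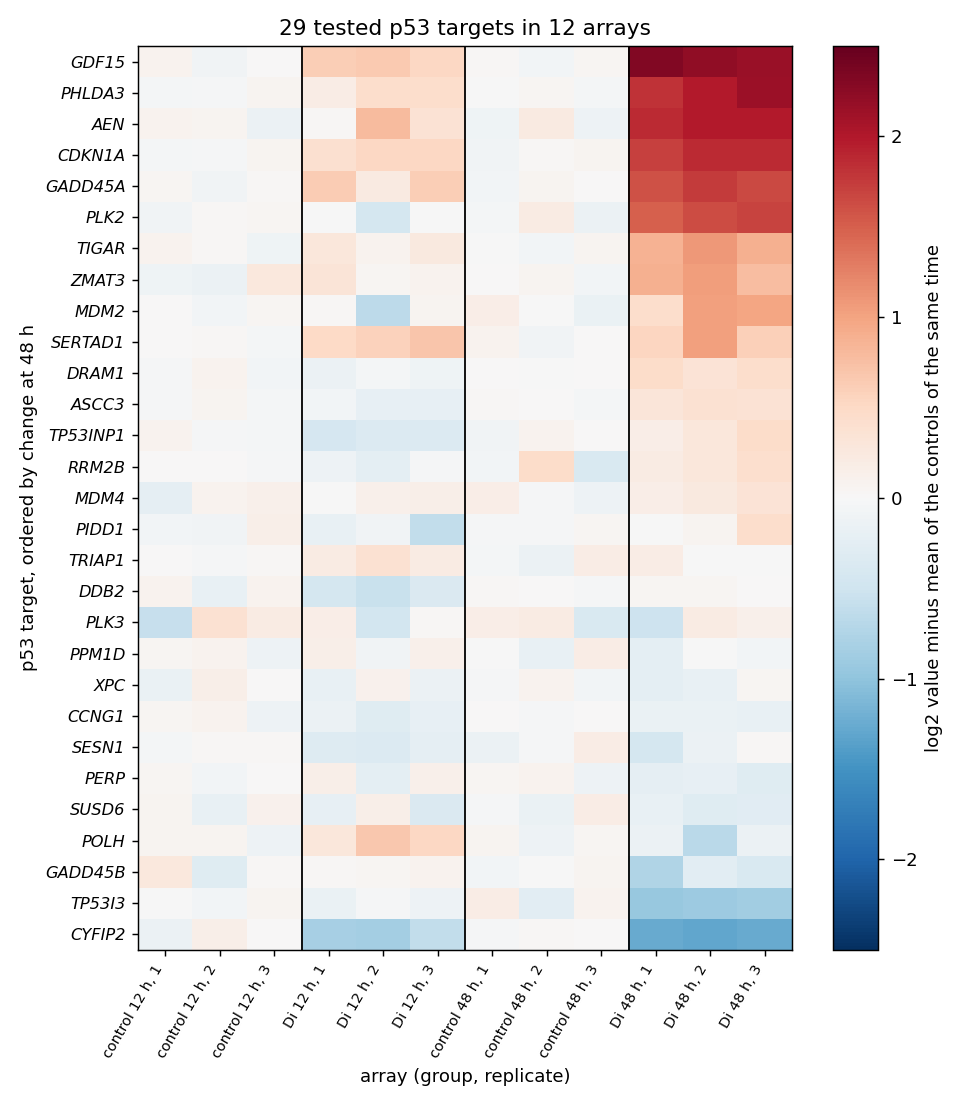
Each row is 1 of 29 tested p53 targets and each column 1 of 12 arrays, grouped by treatment and time. Colour gives the log2 value minus the mean of the 3 controls of the same time, red for higher and blue for lower. The top 6 rows are deep red in all 3 arrays of Di at 48 h, the middle rows stay pale, and CYFIP2 in the last row is blue in Di at both times.

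The second role is feedback on p53, with MDM2, MDM4 and PPM1D. MDM2, the ubiquitin ligase that degrades p53, read 8.75, 8.68 and 8.79 in control at 12 h and 8.78, 8.08 and 8.81 in Di at 12 h. Replicate 2 of Di alone stood low, and the other Di arrays lay among the controls or just above them. At 48 h MDM2 read 8.80, 8.62 and 8.46 in control and 9.06, 9.66 and 9.61 in Di. The groups did not overlap, and the change was 0.82 ± 0.202 (1.76-fold, adjusted p = 0.00554), the largest increase of the feedback genes. At 12 h it was -0.18 ± 0.202 (adjusted p = 0.588), and 0.05 without replicate 2 of Di. Of the other MDM2 probe sets past the filter, one gave 0.72 at 48 h and was called, and the other, at 5.06 to 5.25 in every array, gave 0.03.

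MDM4, a relative of MDM2 that blocks the activation domain of p53, lay at 9.71 ± 0.148 (SD) in control and 9.97 ± 0.0838 in Di at 48 h. Its 3 Di values stood above the 3 controls, but the change of 0.25 ± 0.107 did not pass (adjusted p = 0.0684). It was called in 4 alternatives, among them the average over its probe sets (0.39, adjusted p = 0.0127). PPM1D, the phosphatase WIP1 that reverses damage signalling to p53, stood at 0.06 ± 0.112 and -0.11 ± 0.112 (adjusted p = 0.767 and 0.455), with overlapping groups at both times.

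The third role is DNA repair and the supply of nucleotides. Of 5 tested genes, 1 was called at 48 h, as higher, and 1 at 12 h, as lower, against 50.9% and 13.7% of all genes called in either direction. DDB2, which recognises ultraviolet damage, read 7.18, 6.90 and 7.18 in control at 12 h and 6.64, 6.53 and 6.72 in Di at 12 h (-0.45 ± 0.0852, adjusted p = 0.00764). At 48 h all 6 arrays lay between 6.38 and 6.46 (0.03 ± 0.0852, adjusted p = 0.801). The change at 48 h was thus higher than that at 12 h by 0.48 ± 0.120 (adjusted p = 0.00843). The 12 h call of DDB2 ended when the 48 h arrays were kept out of the fit (adjusted p = 0.0583).

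ASCC3, a helicase used in repair of alkylation damage and rescue of ribosomes, rose at 48 h from 9.34 ± 0.0431 (SD) to 9.69 ± 0.0342 (0.35 ± 0.0645, adjusted p = 0.000906). Its other probe set gave -0.08, and with the mean of both that call ended (0.13, adjusted p = 0.275), as did the call of the difference between the times (0.29, adjusted p = 0.121, against 0.51). POLH, the polymerase that copies past ultraviolet lesions, read 5.56 to 5.77 in control and 5.98 to 6.38 in Di at 12 h (0.49 ± 0.149, adjusted p = 0.0513). At 48 h it stood lower in Di (-0.32 ± 0.149, adjusted p = 0.0966). Neither change passed, but their difference did (-0.81 ± 0.211, adjusted p = 0.0107). The 12 h change was called in 5 alternatives, among them the mean over its probe sets (0.37, adjusted p = 0.0173), and another POLH probe set past the filter gave 1.18 at 12 h. The brightest POLH probe set, of a kind marked for possible cross-hybridisation, gave -0.10 for that difference (adjusted p = 0.617). A further POLH probe set past the filter went the other way. It gave -0.19 at 12 h, 0.29 at 48 h and 0.48 for the difference, none of them called. XPC, the sensor of nucleotide excision repair, and RRM2B, the p53-induced subunit of ribonucleotide reductase, did not pass at either time. XPC stood at -0.07 and -0.13, and RRM2B at -0.13 and 0.30. RRM2B spread widely in control at 48 h, at 7.28 to 8.11, and was called higher at 48 h without replicate 2 of that group (0.53, adjusted p = 0.00308).

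In the metabolic and oxidant-defence group, TIGAR rose and TP53I3 fell at 48 h. TIGAR, a phosphatase that lowers fructose-2,6-bisphosphate and so turns glucose towards NADPH, read 8.69, 8.62 and 8.77 in control and 9.57, 9.77 and 9.59 in Di (0.95 ± 0.0862, 1.93-fold, adjusted p = 3.70e-06). At 12 h the lowest of its Di arrays, at 9.47, 9.27 and 9.42, stood level with the highest control, at 9.27, 9.20 and 9.06, and the change of 0.21 ± 0.0862 did not pass (adjusted p = 0.127). It was called at 12 h when arrays were centred on the tested genes (0.30, adjusted p = 0.0374). TP53I3, a quinone oxidoreductase also known as PIG3, read 7.77, 7.33 and 7.68 in control at 48 h and 6.64, 6.69 and 6.73 in Di. It was the target with the second largest decrease at 48 h (-0.90 ± 0.105, 1.87-fold, adjusted p = 2.59e-05). At 12 h its groups overlapped, at 8.13, 8.08 and 8.22 in control and 7.99, 8.12 and 8.01 in Di (-0.11 ± 0.105, adjusted p = 0.538). SESN1, a sestrin that restrains mTORC1, stood at -0.29 ± 0.118 and -0.18 ± 0.118 (adjusted p = 0.118 and 0.218).

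Among the 9 tested targets with roles in death, survival and membranes, 4 rose and 1 fell at 48 h (22.9% and 28.0% of all genes did). PHLDA3, which competes with AKT for membrane lipids, read 6.02, 6.03 and 6.13 with vehicle and 6.24, 6.50 and 6.49 with Di at 12 h. At 48 h the values were 6.56, 6.63 and 6.53 with vehicle and 8.38, 8.56 and 8.70 with Di. Di arrays were above their controls at both times, by little at 12 h and by a wide gap at 48 h. The changes were 0.35 ± 0.0969 (adjusted p = 0.0364) and 1.98 ± 0.0969 (3.93-fold, adjusted p = 2.93e-08). Its other probe set past the filter gave 2.29 at 48 h. The 12 h call of PHLDA3 ended in 9 of 22 alternatives, among them those without any 1 control array at 12 h (adjusted p = 0.0631 to 0.108), those without replicate 2 or 3 of Di at 12 h (0.0849 and 0.105), and those without replicate 1 of control or 2 of Di at 48 h (0.0550 and 0.0534).

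AEN, a nuclease induced by p53 that digests DNA in apoptosis, read 5.34, 5.68 and 5.33 in control at 48 h and 7.32, 7.44 and 7.44 in Di at 48 h. The change of 1.95 ± 0.168 (3.86-fold, adjusted p = 2.56e-06) came beside an overlap at 12 h, where control read 5.74, 5.72 and 5.50 and Di 5.69, 6.45 and 6.02 (0.40 ± 0.168, adjusted p = 0.135). Without replicate 1 of Di at 12 h, the 12 h change of AEN passed (0.58, adjusted p = 0.0342). TP53INP1, a stress protein of autophagy and cell death, was the target called in opposite directions. It fell at 12 h from 8.02 ± 0.0823 (SD) to 7.65 ± 0.0385 (-0.37 ± 0.0842, adjusted p = 0.0168) and rose at 48 h from 7.89 ± 0.0818 to 8.20 ± 0.145 (0.31 ± 0.0842, adjusted p = 0.0102). Those changes differed by 0.67 ± 0.119 (adjusted p = 0.00110). The 12 h call ended without replicate 1 of control at 12 h (-0.32, adjusted p = 0.0538) and with centring on the tested genes (-0.28, adjusted p = 0.0507).

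DRAM1, a lysosomal membrane protein that links p53 to autophagy, rose at 48 h from 10.10 ± 0.00591 to 10.52 ± 0.0569 (0.42 ± 0.0638, adjusted p = 0.000225), and stood at -0.10 at 12 h (adjusted p = 0.321). CYFIP2, which binds the fragile X protein and belongs to an actin regulatory complex, fell at both times. It read 8.09, 8.38 and 8.24 in control and 7.41, 7.38 and 7.62 in Di at 12 h, and 9.50, 9.54 and 9.53 in control and 8.26, 8.22 and 8.26 in Di at 48 h. The control arrays had risen by 1.29 ± 0.0866 between the times (adjusted p = 4.38e-07), and Di at 48 h lay within the range of control at 12 h. The changes were -0.76 ± 0.0866 (1.70-fold, adjusted p = 0.000870) and -1.27 ± 0.0866 (2.42-fold, adjusted p = 3.68e-07), and the second was larger by 0.51 on the log2 scale (adjusted p = 0.00679). Its other probe set gave -0.68 and -1.70.

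The rest of that role did not pass at either time. PERP, a desmosomal membrane protein, stood at 0.01 and -0.24 (adjusted p = 0.969 and 0.0760), and was called lower at 48 h in 6 alternatives (-0.24 to -0.31), among them the one that used its brighter probe set, marked for possible cross-hybridisation (-0.27). TRIAP1, an inhibitor of the apoptosome, stood at 0.26 and 0.05 (adjusted p = 0.0947 and 0.684). PIDD1, a scaffold of the PIDDosome, lay near the filter level at 3.81 to 4.76 and stood at -0.30 and 0.16 (adjusted p = 0.191 and 0.393). SUSD6, a membrane protein, stood at -0.14 and -0.26 (adjusted p = 0.524 and 0.135).

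Of the remaining pair, GDF15 and ZMAT3, both rose at 48 h. GDF15, a secreted stress cytokine of the TGF-beta family, read 10.04, 9.87 and 9.98 with vehicle and 10.57, 10.62 and 10.48 with Di at 12 h. At 48 h the values were 12.30, 12.20 and 12.33 with vehicle and 14.60, 14.50 and 14.44 with Di. The control cells gained 2.31 ± 0.0747 between the times (4.97-fold, adjusted p = 2.44e-09). Di raised GDF15 by 0.59 ± 0.0747 at 12 h (1.51-fold, adjusted p = 0.00132) and by 2.24 ± 0.0747 at 48 h (4.71-fold, adjusted p = 1.48e-09), the largest increase among the tested targets. Of all genes tested, 0.687% rose more at 48 h. The probe set is of the kind marked for possible cross-hybridisation and was used because the others of GDF15 stayed under the filter level. Those 2 lay at 2.16 and 2.69 in control at 48 h and at 2.69 and 3.33 in Di. With no filter, one of them stood for GDF15 and gave 0.64 with Di at 48 h (adjusted p = 0.00129), 0.04 with Di at 12 h (adjusted p = 0.907) and 0.08 between the controls (adjusted p = 0.889).

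ZMAT3, a zinc finger protein that binds RNA and alters splicing, read 7.91, 7.86 and 8.27 in control and 8.34, 8.06 and 8.10 in Di at 12 h, which overlapped (0.15 ± 0.120, adjusted p = 0.422). At 48 h it read 9.07, 9.13 and 9.00 in control and 9.96, 10.11 and 9.84 in Di (0.90 ± 0.120, 1.87-fold, adjusted p = 7.64e-05). Its 4 other probe sets past the filter gave 0.83 to 1.58 at 48 h. At 12 h they gave -0.24, -0.22, -0.21 and 0.43, none of them called. For the difference between the changes they gave 1.07 to 1.78, against 0.75 in the probe set used. Over the called targets at 48 h, 10 of 11 other probe sets had the sign of the one used, and 0 were called in the opposite direction.

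**Figure D3:**
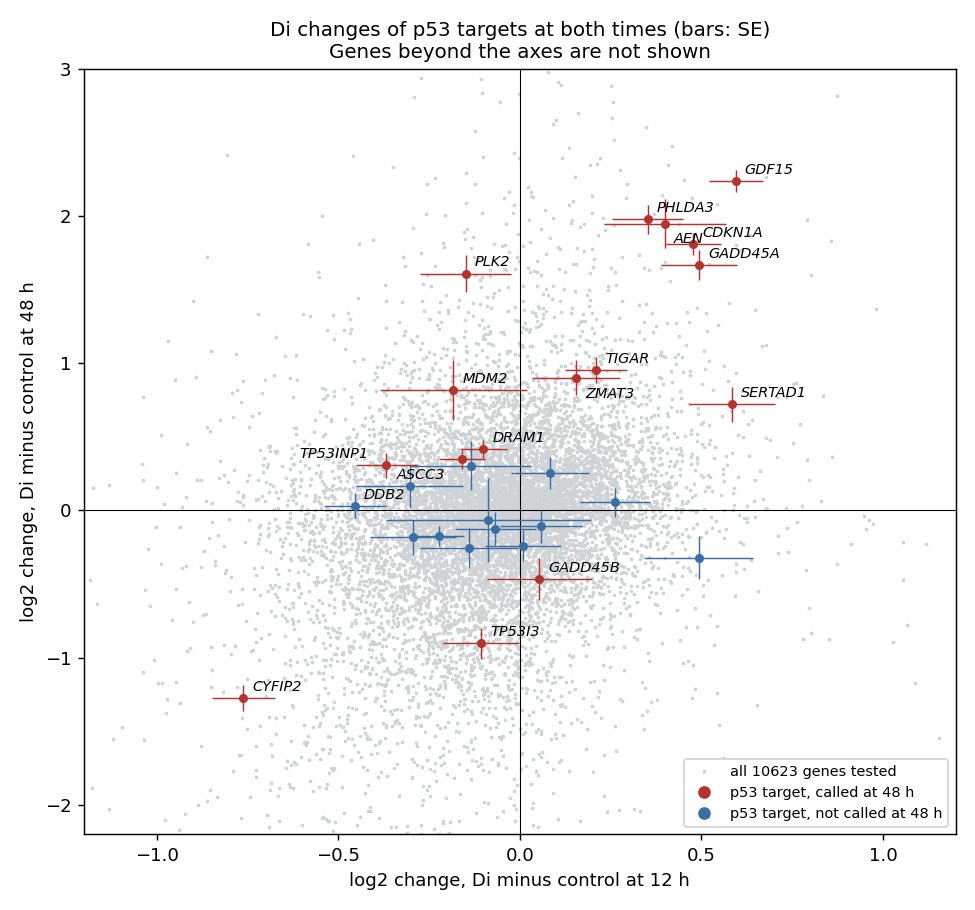
Log2 change with Di at 12 h (horizontal axis) against that at 48 h (vertical axis) for the 29 tested p53 targets, with bars of 1 SE, over the tested genes in grey. Genes beyond the axes are not shown. Names mark targets called in either comparison. GDF15, PHLDA3, AEN, CDKN1A and GADD45A lie at the upper right, PLK2 and MDM2 rise at 48 h alone, and CYFIP2 lies at the lower left.

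Setting the times side by side, 5 targets were higher at both (17.2%, against 2.00% of all genes) and 1 was lower at both (CYFIP2, 3.45% against 4.46%). A rise at 48 h without a call at 12 h was seen in 7 (24.1%, near the 19.3% of all genes: MDM2, ZMAT3, AEN, TIGAR, PLK2, DRAM1 and ASCC3). The difference between the changes was itself called in 16 of 29 targets (55.2%, against 38.3% of all genes), with the change at 48 h the higher one in 13 (44.8%, against 19.7%) and the lower one in 3 (18.5% of all genes). Among the 13 targets that rose at 48 h, all but SERTAD1 passed that test with the higher change at 48 h. These 13 were picked by their 48 h change, which is itself part of that test. The share among all genes that rose at 48 h was not computed, so this count does not set the targets apart. Across the 29 targets the changes at 12 h and 48 h had a Pearson correlation of 0.632 and a Spearman correlation of 0.456, beside 0.259 (Pearson) over all tested genes. These are correlations across genes, which are not independent replicates, and each time has its own control arrays.

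The targets also moved without Di. Between control at 12 h and control at 48 h, 9 of 29 were higher and 9 lower, or 62.1% in either direction against 52.9% of all genes (21.9% higher and 31.0% lower). The groups did not overlap for 11 higher and 8 lower targets, and for 65.2% of all genes (27.7% higher and 37.5% lower). GDF15 (2.31), GADD45A (1.41), CYFIP2 (1.29), ZMAT3 (1.06) and MDM4 (0.84) had the largest increases. The size for ZMAT3 depended on the probe set, since its others past the filter gave 0.09, 0.39, 0.45 and 1.13. GADD45B (-0.96), PLK2 (-0.80), DDB2 (-0.67) and TP53I3 (-0.55) had the largest decreases. Of the 13 targets that rose with Di at 48 h, 6 were higher in the later control (CDKN1A, GDF15, ZMAT3, PHLDA3, GADD45A and DRAM1), 3 were lower (TIGAR, PLK2 and SERTAD1) and 4 did not pass (MDM2, TP53INP1, AEN and ASCC3). Time in culture and other differences between the arrays of both times cannot be told apart.

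Other genes of the pathway were taken from lists of names. Of 33 further p53 targets, 26 were tested, and at 48 h 13 of these were higher (22.9% of all genes were) and 2 lower (28.0% were), with a median change of 0.26. The 3 largest increases were in KITLG, the ligand of the receptor KIT (3.24 ± 0.0646, 9.45-fold, adjusted p = 3.18e-11), SFN, the 14-3-3 sigma protein that holds cells before mitosis (2.39 ± 0.0949, adjusted p = 5.61e-09), and KLF4, a transcription factor of epithelia (2.19 ± 0.137, adjusted p = 1.81e-07). PANK1, a pantothenate kinase (-0.88 ± 0.0982), and TNFAIP8, a regulator of apoptosis (-0.54 ± 0.0981), were lower. From control at 12 h to control at 48 h, KITLG (-1.36), SFN (-2.04), PANK1 (-0.54) and TNFAIP8 (-0.65) fell, and KLF4 (0.18) was not called. Mean SFN was 9.23 in control and 11.62 in Di at 48 h, beside 11.27 and 11.39 at 12 h. KITLG was called lower with Di at 12 h (-0.32 ± 0.0646, adjusted p = 0.0107). At 12 h, 3 of the 26 were higher and 1 lower, with a median of -0.06 (3.90% and 9.80% of all genes were called so).

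Of 24 genes of the p53 family and its regulators, 20 were tested, and 4 were higher and 9 lower at 48 h (22.9% and 28.0% of all genes), with a median of -0.04. HIPK2, a kinase that phosphorylates p53, rose by 1.35 ± 0.110 (2.54-fold, adjusted p = 1.68e-06). USP7, which removes ubiquitin from MDM2 and p53, rose by 0.60 ± 0.106 (adjusted p = 0.000607), and TP53BP1, a protein of double-strand breaks, by 0.49 ± 0.0919 (adjusted p = 0.000944). HEXIM1, an inhibitor of transcription elongation that binds p53, fell by 1.17 on the log2 scale, the checkpoint kinase CHEK1 by 1.03 and the damage kinase ATM by 0.47. The calls of ATM and TP53BP1 ended with the average over their probe sets (-0.27 and 0.14). At 12 h 1 gene of this list was higher and 2 lower (3.90% and 9.80% of all genes), or 1 in all without replicate 2 of control at 12 h. TP53BP1 was among the lower genes at 12 h (-0.48 ± 0.0919, adjusted p = 0.00853), opposite to its rise at 48 h.

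Genes known to be repressed through p21 and the DREAM complex, a repressor of cell cycle genes, were lower at 48 h in 13 of 14 tested members (92.9%, against 28.0% of all genes), with a median of -1.09. CDC25C (-1.94 ± 0.155), MCM5 (-1.82 ± 0.0853) and BIRC5 (-1.52 ± 0.133) had the largest decreases (adjusted p = 1.42e-06, 2.12e-08 and 2.77e-06). All 14 were also lower in control at 48 h than in control at 12 h, with a median of -2.04 (31.0% of all genes were lower). At 12 h 2 of the 14 were lower with Di (14.3%, near the 9.80% of all genes), and 1 when replicate 2 or 3 of either 12 h group, or the second Di array at 48 h, was left out. The 3 Di arrays at 12 h lay wholly below the 3 controls for 7 of the 14 (23.7% of all genes) and wholly above for 0 (11.1%). Their median change at 12 h was -0.21, beside -0.06 for all genes. Most of these genes are also general markers of cycling cells.

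**Figure D4:**
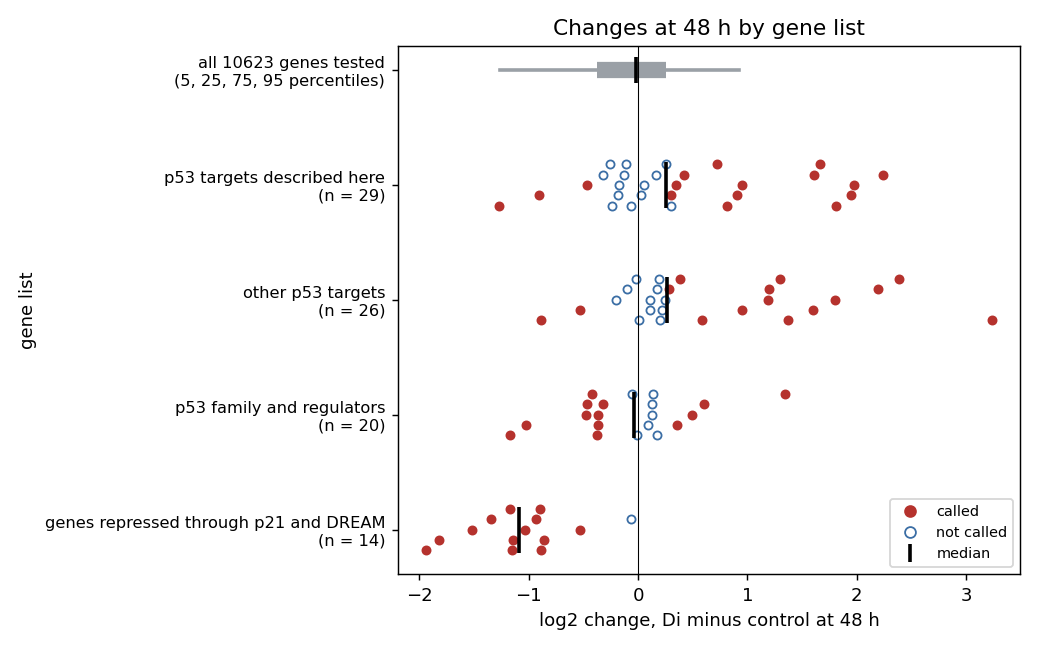
Log2 change with Di at 48 h (horizontal axis) for each tested gene of 4 lists (rows), filled where called and open where not, with the median as a black tick. The top row gives the 5, 25, 75 and 95 percentiles of all 10623 tested genes as a line and a box. Both rows of p53 targets reach from about -1 to above 2 with medians of 0.25 and 0.26, while 13 of 14 genes of the DREAM row lie in the called decreases.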

How the data were processed

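The labels describe 12 Affymetrix arrays of HK-2 cells in 4 groups of 3. The authors deposited log2 expression per probe set. GCRMA made it, per the submitters' processing notes, and its version is not given in the sources used here. GCRMA corrects background, normalises arrays and summarises each probe set, which compresses differences near the background. Of 54675 probe sets, 41097 had 1 gene symbol, 1801 several and 11777 none, and 43 symbols were updated through RefSeq. A probe set was kept above a log2 value of 4 in at least 3 arrays. Among the kept probe sets of a gene, the one with the highest mean was used, and an _x_at one only where no other was kept.

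In R 4.3.3, limma 3.58.1 (lmFit, eBayes) fitted the 4 group means over 12 arrays together, with two-sided tests adjusted by Benjamini-Hochberg over 10623 genes. The fit was tested on simulated data. Errors beside changes are standard errors, those beside means SDs. Figures used matplotlib 3.10.9. The members and lists were chosen with earlier results of these data known. Values of every array are given for targets called in a Di comparison with a log2 change of at least 0.5 and for CDKN1A, MDM2, GDF15 and GADD45A. From each other list, up to 3 genes with the largest called change in each direction at 48 h are named. Arrays give no counting depth, so their number limits the precision. The alternatives changed the level filter, moderation, scaling, probe set rule, arrays in the fit and replicate block, or left out 1 array.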

Additional observations from a re-analysis of the deposited data

Results flagged for a closer look

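For 16 targets the change with Di at 48 h differed from that at 12 h by the test of the difference itself (limma, adjusted p under 0.05 over all genes). On the log2 scale, 48 h minus 12 h, it was 1.76 for PLK2, 1.64 for GDF15, 1.62 for PHLDA3, 1.55 for AEN, 1.33 for CDKN1A, 1.17 for GADD45A and 1.00 for MDM2. Smaller positive differences were found for ZMAT3 (0.75), TIGAR (0.74), TP53INP1 (0.67), DRAM1 (0.52), ASCC3 (0.51) and DDB2 (0.48). That of ASCC3 was not called with the mean of its probe sets (0.2867, adjusted p = 0.121). That of ZMAT3 was larger in its other probe sets past the filter, at 1.07 to 1.78. Negative ones were found for POLH (-0.81), TP53I3 (-0.80) and CYFIP2 (-0.51). That of POLH depended on the probe set, since its others past the filter gave -1.29, -0.10 and 0.48. Groups of 3 arrays were too small for a test of single outlying arrays.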

How the results depend on the processing

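Of 108 single changes named, computed under up to 22 alternatives, 2256 values kept direction and side of the threshold, 41 lost a call, 33 gained one and 24 changed sign, of which 23 had no call on either side. With the replicate number as a block, 8 targets were called at 12 h and 16 at 48 h, as without it. Same-numbered arrays did not pair (correlations of their deviations -0.264 to 0.154, and 2 of 12 arrays correlated best with their own number). At 12 h, fitting only those arrays gave 575 genes called in all, 5 targets (3 higher), 1 regulator and 1 DREAM gene, and the cause was not tested beyond the fewer arrays. With no filter 3 targets were higher at 12 h, where GDF15 fell to another probe set near background (0.0383, adjusted p = 0.907). DREAM calls at 12 h were also 1 with no filter, quantile normalisation and centring on the tested genes, and other p53 targets 7 with a filter of 6 and with trend and robust moderation. The 12 h median of the targets was 0.0057, 0.0081, -0.0134 and 0.0194 with no filter, a filter of 6, quantile normalisation and centring on the tested genes. At 48 h, 5 targets were lower with quantile normalisation and with only the 48 h arrays. Leaving out 1 array gave 745 to 1457 genes called at 12 h (745 without replicate 2 and 784 without replicate 3 of control at 12 h), 3 to 7 targets higher, 1 to 4 regulators, 1 to 2 DREAM genes and a target median of -0.1025 to 0.0547 at 12 h, and 2 to 5 targets lower at 48 h. Without replicate 2 of Di at 12 h, 4 targets were higher and 3 lower at 12 h, and 13 and 5 at 48 h.

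Signs changed at 12 h for PERP (-0.0978 with the mean of probe sets, -0.2037 with _x_at probe sets allowed), ZMAT3 (-0.0158) and MDM4 (-0.0300) with the mean of probe sets, and XPC with centring on the tested genes (0.0194). At 48 h PLK3 stood at 0.0194 with quantile normalisation and 0.42 with the mean of probe sets. Leaving out 1 array gave, at 12 h, -0.0965 to 0.1888 for GADD45B, -0.3096 to 0.0547 for MDM2, -0.0245 to 0.1454 for MDM4, -0.0585 to 0.1343 for PERP, -0.3741 to 0.1007 for PLK3, -0.0090 to 0.1344 for PPM1D and -0.1591 to 0.0094 for XPC. At 48 h it gave -0.2562 to 0.1626 for PLK3 and -0.0243 to 0.1504 for TRIAP1, and for the difference of the changes of SERTAD1 -0.0208 to 0.2265. The causes were not tested.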
